A study of Mus musculus with 11 samples.

Results

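The genes described here are the core of the TGF-beta pathway: the ligands Tgfb1, Tgfb2 and Tgfb3, the receptors Tgfbr1, Tgfbr2 and Tgfbr3, and the intracellular SMAD proteins Smad2, Smad3, Smad4 and Smad7. They were chosen by name for their role and not by any measured value, though with earlier results of these data known. They make up 10 of the 38561 genes counted. All 10 had enough reads to be tested, among 17317 tested genes. Their transcripts were measured by RNA sequencing in facial process explants (mandibular and maxillary arches and nasal processes) dissected from mouse embryos at embryonic day 10.5, of a mixed strain. The groups were wild type (wt, 2 libraries), embryos mutant for the WNT agonist gene Rspo2 (Rspo2KO, 3 libraries), embryos mutant for the ligand gene Wnt9b (Wnt9bKO, 3 libraries) and double mutants of both genes (DKO, 3 libraries). Both alleles of the named gene or genes are lost in every cell of a mutant, so no Cre or tissue promoter limits where the loss occurs. The labels do not say whether a library came from 1 embryo or a pool, nor that libraries are separate litters, so p-values measure the spread between these libraries only. The question put to these genes was whether their transcripts differ when either or both WNT activators are lost.

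A TGF-beta ligand is secreted in a latent complex and, once released, binds the receptor kinase TGFBR2, which recruits and phosphorylates TGFBR1. TGFBR3, also called betaglycan, is a co-receptor that presents ligand, TGF-beta 2 above all, to the kinase receptors. Activated TGFBR1 phosphorylates SMAD2 and SMAD3, which join SMAD4 and enter the nucleus, while SMAD7 blocks the receptor and is itself induced by the pathway as a brake. In the embryonic face the pathway acts in neural crest-derived mesenchyme and in epithelium, and TGF-beta 3 is known for its part in palate fusion.

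Library depth ran from 11136166 to 18017344 counts assigned to genes, and 3 counts, the limit that a count of 0 allows, correspond to 0.160 to 0.268 CPM (counts scaled to the library's total, here adjusted by edgeR's TMM factors). These limits cover counting error only. Rspo2 was at 14.8 and 16.0 CPM in wt and at 4.74 to 6.59 CPM in Rspo2KO. The library labelled Wnt9bKO 2 had 2.86 CPM of Rspo2 against 22.8 and 18.1 CPM in the other Wnt9bKO libraries, and the library labelled DKO 3 had 15.5 CPM against 4.17 and 3.67 CPM in the other DKO libraries. Both go against their labels, so the changes that passed, and the changes of Tgfb2 and Tgfb3, are also given without the pair. Wnt9b transcripts were at 10.8 to 23.3 CPM in all libraries and were not lower in the Wnt9b mutants, so the counts do not check that label. On the log2 scale they were higher than in wt by 0.61 in Wnt9bKO (edgeR adjusted p = 0.0187) and 0.68 in DKO (edgeR adjusted p = 0.0138). Facial mesenchyme markers (13 genes) summed to 1036 to 1097 CPM in wt, 782 to 829 CPM in Rspo2KO, 758 to 1284 CPM in Wnt9bKO and 869 to 966 CPM in DKO, and surface ectoderm markers (10 genes) to 232 to 280 CPM over the 11 libraries, with none of them at 0.

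Other features of the libraries moved with the groups, and their part in the results was not tested. Summed erythroid markers (10 genes, none at 0) were 4019 to 5880 CPM in wt and Rspo2KO but 1795 to 2914 CPM in Wnt9bKO and DKO. Summed small nuclear RNAs were 352 to 420 CPM in wt and Rspo2KO but 70.1 to 82.7 CPM in Wnt9bKO and DKO, so that difference cannot be told apart from the Wnt9b genotype. Forebrain and eye markers (9 genes, none at 0) summed to 115 to 130 CPM in wt, 133 to 154 CPM in Rspo2KO, 143 to 295 CPM in Wnt9bKO and 166 to 204 CPM in DKO. By edgeR's test 7 of the 9 were higher than in wt in Wnt9bKO and 5 in DKO, beside 16.8% and 14.3% of all genes tested. Neuron markers (10 genes, none at 0) summed to 562 to 630 CPM in wt and 375 to 565 CPM in Wnt9bKO but 693 to 816 CPM in Rspo2KO and DKO. Macrophage markers (10 genes, none at 0) summed to 69.1 to 84.2 CPM in wt and Rspo2KO but 42.6 to 68.2 CPM in Wnt9bKO and DKO, and megakaryocyte markers (6 genes, none at 0) to 15.6 to 29.5 CPM and 11.1 to 16.2 CPM. Muscle and heart markers (9 genes) reached 64.8 CPM in wt 1 only. They were at 12.6 CPM in wt 2, within the 6.20 to 15.4 CPM of the mutants, with at most 1 of them at 0 in a library. Xist, the RNA of the inactive X chromosome, named after its values were seen, was at 680 to 1469 CPM in wt and DKO but below 2 CPM in Wnt9bKO and Rspo2KO (0.823 to 1.94 CPM). The comparison of DKO with wt and that of Wnt9bKO with Rspo2KO were therefore made between libraries of the same Xist state. Every other comparison of groups set Xist-high against Xist-low libraries, so Xist state cannot be told apart from genotype there. In these bulk samples fewer cells of a type and less RNA per cell cannot be told apart.

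Per kilobase of exon, Tgfbr1 and Smad4 were the most abundant of the 10 transcripts and Tgfb1 was the least. In wt Tgfbr1 was at 50.5 ± 2.82 CPM per kb (SD, n = 2), Smad4 at 42.3 ± 0.690 and Smad3 at 18.8 ± 3.80. Smad2 followed at 9.26 ± 1.07 CPM per kb and Smad7 at 4.93 ± 1.40. Each of the first 4 lay above the next in both wt libraries, and Tgfbr1 lay above Smad4, Smad4 above Smad3 and Smad3 above Smad2 in 11 of 11 libraries. The ligands and the other receptors were lower, with Tgfb2 at 3.92 ± 0.418, Tgfbr2 at 3.45 ± 0.281, Tgfb3 at 2.99 ± 0.0429 and Tgfbr3 at 2.22 ± 0.126 CPM per kb in wt. The wt libraries of Smad7 overlapped those of Tgfb2, and those of Tgfb2 overlapped those of Tgfbr2. Compared within each library, Smad7 lay above Tgfb2 in 8 of 11 and Tgfb2 above Tgfbr2 in 11 of 11. Tgfbr2 lay above Tgfb3, and Tgfb3 above Tgfbr3, in only 5 of 11 libraries each. Tgfb1 was at 0.223 ± 0.0401 CPM per kb in wt.

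**Figure D1:**
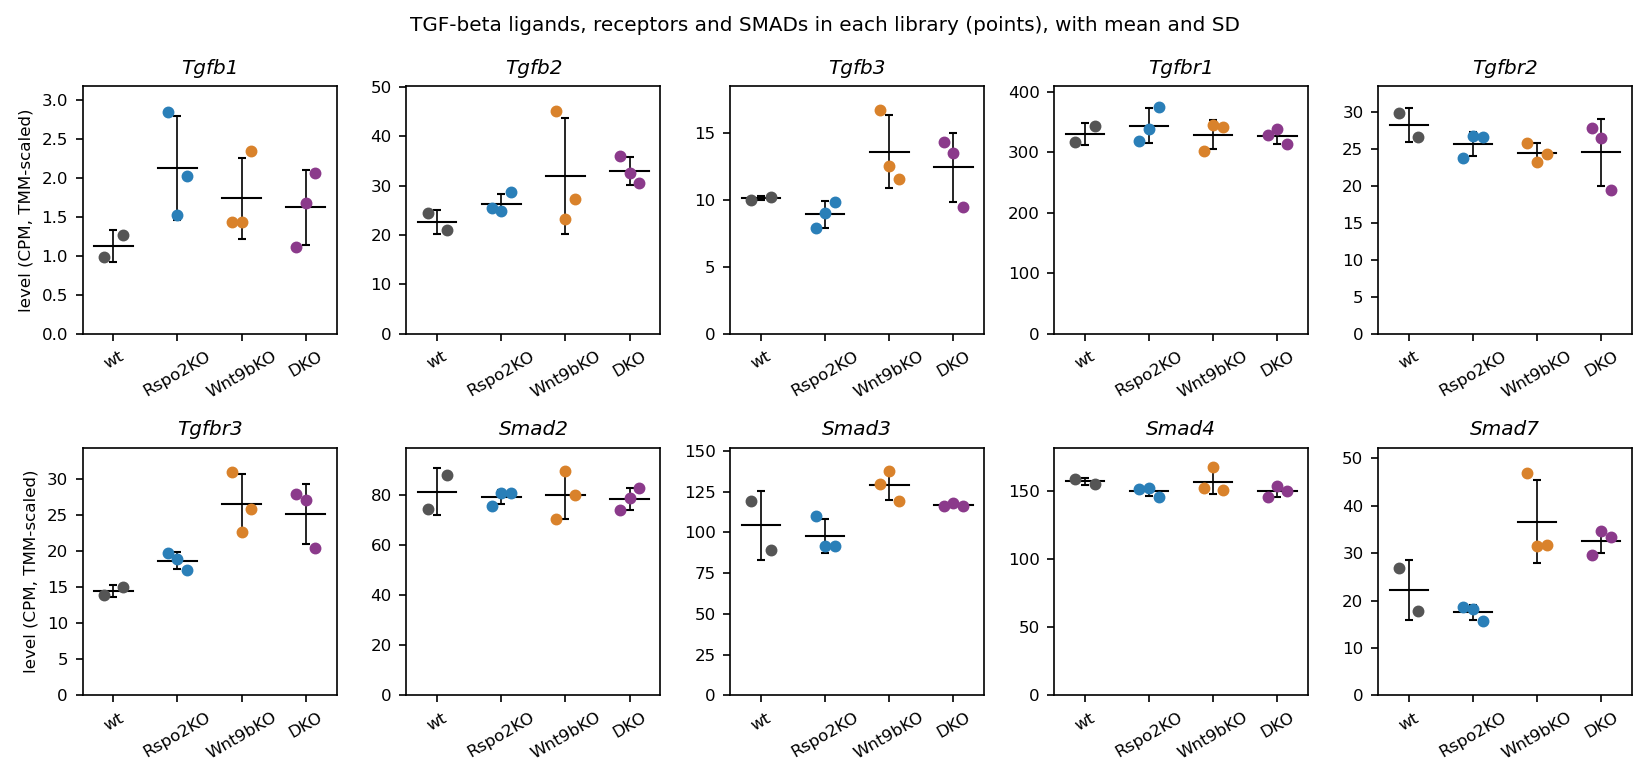
Level of each gene in CPM (vertical axes, linear and starting at 0, scaled per gene) in the 11 libraries by genotype; points are libraries, horizontal bars are group means and error bars are the SD. Tgfbr3 and Smad7 are higher in all 6 Wnt9bKO and DKO libraries than in all 5 wt and Rspo2KO libraries, while Tgfbr1, Smad2 and Smad4 stay within 1.27-fold from lowest to highest. Of all genes tested, 10.1% are higher without overlap in those 6 libraries.

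The 3 ligand genes lie on separate chromosomes in GRCm38: Tgfb1 at chr7:25687002-25705077, Tgfb2 at chr1:186622792-186705989 and Tgfb3 at chr12:86056745-86079041. Tgfb2 supplied most of the ligand transcripts per kilobase, with 50.1 to 62.1% of the sum of the 3 in every library, against 31.8 to 46.3% for Tgfb3 and 2.07 to 7.73% for Tgfb1. The order Tgfb2, Tgfb3, Tgfb1 was therefore the same in all 11 libraries.

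Tgfb2, the ligand that depends most on betaglycan, was at 24.4 and 21.0 CPM in the wt libraries. It was at 25.5, 24.8 and 28.6 CPM in Rspo2KO, at 45.2, 23.2 and 27.2 CPM in Wnt9bKO and at 36.1, 32.5 and 30.4 CPM in DKO. All 3 DKO libraries lay above both wt libraries, whereas Wnt9bKO overlapped wt through the low library labelled Wnt9bKO 2. DKO lay above wt without overlap for 29.5% of all genes tested. Wnt9bKO 1 stood far above all other libraries. The log2 fold change was 0.55 ± 0.22 (SE) in DKO against wt and 0.50 ± 0.22 in Wnt9bKO against wt, and neither passed edgeR's quasi-likelihood test (Benjamini-Hochberg adjusted p = 0.0762 and 0.0931). Without the libraries labelled Wnt9bKO 2 and DKO 3, both passed, with 0.60 (edgeR adjusted p = 0.0414) and 0.68 (edgeR adjusted p = 0.0212). Leaving out 1 library at a time, the change in Wnt9bKO ran from 0.16 without Wnt9bKO 1 to 0.71 without Wnt9bKO 2 and passed in 1 of 11 fits (edgeR adjusted p up to 0.412). The change in DKO ran from 0.43 to 0.65 and passed in 2 of 11. Over all 21 alternative fits, the change of Tgfb2 passed in 7 in DKO and in 3 in Wnt9bKO.

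Tgfb3 was at 10.1 ± 0.145 CPM in wt (SD, n = 2, the higher library at 10.2) and at 7.86, 8.99 and 9.85 CPM in Rspo2KO. It was at 16.7, 12.5 and 11.6 CPM in Wnt9bKO and at 14.3, 13.5 and 9.47 CPM in DKO. The Wnt9bKO libraries lay above all wt and Rspo2KO libraries, and DKO overlapped both because DKO 3 was low. Wnt9bKO lay above wt without overlap for 28.3% of all genes tested, and above Rspo2KO for 18.3%. Against wt the change was 0.43 ± 0.20 in Wnt9bKO (edgeR adjusted p = 0.120), 0.30 ± 0.20 in DKO (edgeR adjusted p = 0.304) and -0.18 ± 0.21 in Rspo2KO (edgeR adjusted p = 0.769). The change in Wnt9bKO passed in 2 of 21 alternative fits, and those in DKO and Rspo2KO in none. Tgfb3 was higher in Wnt9bKO than in Rspo2KO by 0.61 ± 0.18 on the log2 scale (edgeR adjusted p = 0.0222). That call was lost without Rspo2KO 1, Rspo2KO 2 or Wnt9bKO 1 (0.43 to 0.63, edgeR adjusted p = 0.0604 to 0.0852). In DKO against Rspo2KO the difference was 0.48 ± 0.18 (edgeR adjusted p = 0.0823). Without the libraries labelled Wnt9bKO 2 and DKO 3, Tgfb3 was higher than in Rspo2KO by 0.67 in Wnt9bKO (edgeR adjusted p = 0.0143) and by 0.65 in DKO (edgeR adjusted p = 0.0215), while against wt the changes were 0.48 and 0.45 and did not pass (edgeR adjusted p = 0.0722 and 0.0970).

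Tgfb1 rested on only 11 to 39 counts a library. It was at 0.983 and 1.27 CPM in wt, at 2.85, 1.52 and 2.02 CPM in Rspo2KO, at 1.44, 1.43 and 2.34 CPM in Wnt9bKO and at 1.12, 1.68 and 2.06 CPM in DKO. Rspo2KO and Wnt9bKO lay above wt and DKO overlapped it. Of all genes tested, 17.2% were higher without overlap in Rspo2KO than in wt, and 28.3% in Wnt9bKO than in wt. The largest of its changes was 0.88 ± 0.38 in Rspo2KO against wt, with a 95% interval of 0.07 to 1.69, and it did not pass (edgeR adjusted p = 0.373).

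The receptor genes are Tgfbr1 at chr4:47353222-47414931, Tgfbr2 at chr9:116084293-116175360 and Tgfbr3 at chr5:107106570-107289629. Tgfbr3 was the receptor that differed between genotypes, and Tgfbr1 and Tgfbr2 did not pass the test in any comparison.

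Tgfbr3 was at 13.9 and 15.1 CPM in wt and at 19.7, 18.9 and 17.4 CPM in Rspo2KO. It was at 31.0, 22.7 and 25.9 CPM in Wnt9bKO and at 28.0, 27.1 and 20.5 CPM in DKO. The wt libraries were lowest, the Rspo2KO libraries lay between, and all 6 Wnt9bKO and DKO libraries were highest, with no overlap between these 3 levels. The libraries labelled Wnt9bKO 2 and DKO 3 were the lowest of the 6. Among all genes tested, 10.1% were higher without overlap in the 6 Wnt9bKO and DKO libraries than in the other 5. Rspo2KO lay above wt without overlap for 17.2% of them.

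Tgfbr3 rose in Wnt9bKO against wt by 0.87 ± 0.17 on the log2 scale, or 1.83-fold (95% interval 0.51 to 1.22, edgeR adjusted p = 0.00138). In DKO against wt it rose by 0.79 ± 0.17, or 1.73-fold (95% interval 0.44 to 1.15, edgeR adjusted p = 0.00322). These comparisons share the wt libraries. In Rspo2KO the change against wt was 0.36 ± 0.17 and did not pass (edgeR adjusted p = 0.410, unadjusted p = 0.0473). Tgfbr3 was also higher than in Rspo2KO, by 0.51 ± 0.14 in Wnt9bKO (edgeR adjusted p = 0.0176) and by 0.43 ± 0.14 in DKO (edgeR adjusted p = 0.0495). Without the libraries labelled Wnt9bKO 2 and DKO 3, the increase against wt was 0.97 in Wnt9bKO (edgeR adjusted p = 0.000553) and 0.92 in DKO (edgeR adjusted p = 0.000804), and the difference from Rspo2KO was 0.61 (edgeR adjusted p = 0.00487) and 0.56 (edgeR adjusted p = 0.00911). The difference of DKO from Rspo2KO passed in only 3 of the 11 fits that each left out 1 library, and the call was lost without either wt library, any Rspo2KO library, Wnt9bKO 3, DKO 1 or DKO 2 (0.35 to 0.47 on the log2 scale, edgeR adjusted p = 0.0533 to 0.189). The difference of Wnt9bKO from Rspo2KO was lost without Rspo2KO 3 (0.46, edgeR adjusted p = 0.0776) or Wnt9bKO 1 (0.38, edgeR adjusted p = 0.0633).

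Tgfbr1, the kinase that phosphorylates SMAD2 and SMAD3, was at 317 and 343 CPM in wt, at 318, 339 and 375 CPM in Rspo2KO, at 301, 345 and 341 CPM in Wnt9bKO and at 328, 338 and 313 CPM in DKO. The groups overlapped throughout. Its log2 change against wt had a 95% interval of -0.24 to 0.23 in Wnt9bKO, -0.18 to 0.30 in Rspo2KO and -0.25 to 0.22 in DKO.

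Tgfbr2, the kinase that binds ligand first, was at 29.8 and 26.6 CPM in wt, at 23.8, 26.7 and 26.7 CPM in Rspo2KO, at 25.9, 23.2 and 24.3 CPM in Wnt9bKO and at 27.8, 26.5 and 19.4 CPM in DKO. The Wnt9bKO libraries lay just below wt, and the other groups overlapped it. Wnt9bKO lay below wt without overlap for 28.0% of all genes tested. The change was -0.20 ± 0.15 in both Wnt9bKO and DKO against wt (edgeR adjusted p = 0.313 and 0.347).

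Within each library, the ratio of Tgfbr3 to Tgfbr2 per kilobase was 0.584 and 0.711 in wt, 1.03, 0.887 and 0.818 in Rspo2KO and 1.26, 1.28 and 1.32 in DKO. In Wnt9bKO it was 1.35 ± 0.139 (SD, n = 3), with the lowest library at 1.22. Betaglycan transcripts per kilobase were fewer than those of the ligand-binding kinase in both wt libraries and more numerous in every Wnt9bKO and DKO library. The ratio of Tgfbr1 to Tgfbr2 was 13.3 to 20.2 over the 11 libraries, with every mutant group overlapping wt. These ratios are descriptions with no test.

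**Figure D2:**
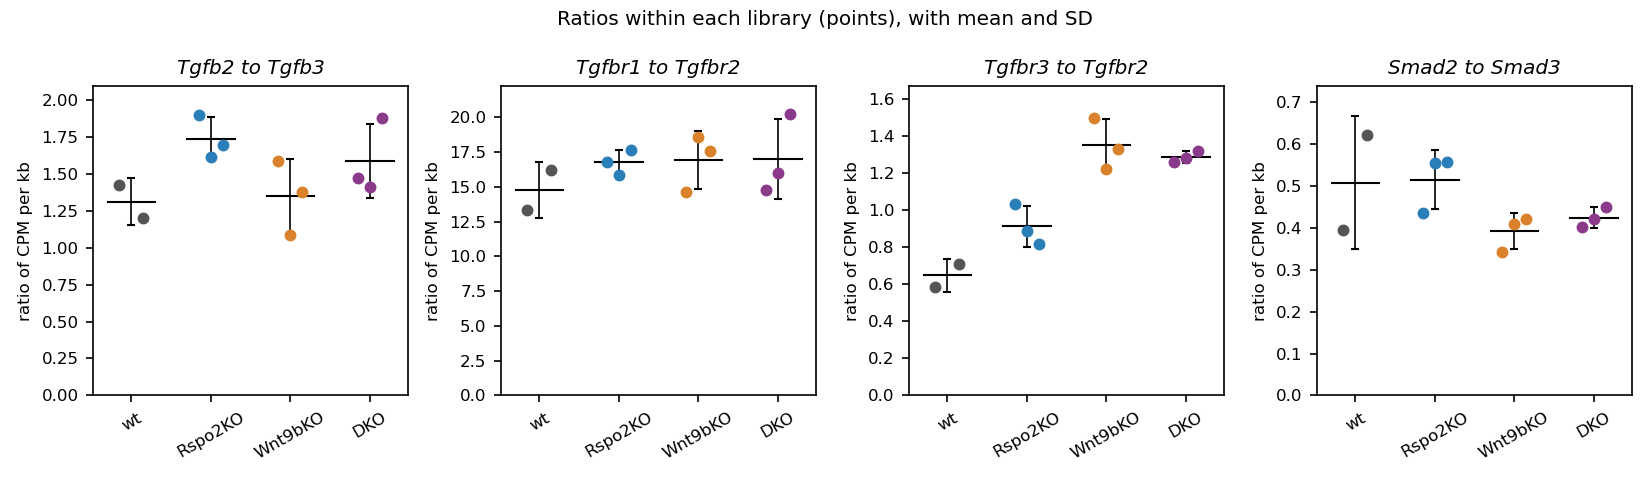
Ratios of CPM per kb within each library (vertical axes, linear and starting at 0) by genotype; points are libraries, horizontal bars are group means and error bars are the SD. The ratio of Tgfbr3 to Tgfbr2 is 0.584 to 0.711 in wt and 1.22 or higher in every Wnt9bKO and DKO library, while the ratios of Tgfb2 to Tgfb3, Tgfbr1 to Tgfbr2 and Smad2 to Smad3 overlap between wt and Wnt9bKO. In Rspo2KO the ratio of Tgfb2 to Tgfb3 is 1.61 to 1.90, above the 1.20 to 1.42 of wt.

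The SMAD genes are Smad3 at chr9:63646767-63757994, Smad2 at chr18:76241580-76310963, Smad4 at chr18:73639009-73703780 and Smad7 at chr18:75367529-75395935. The inhibitor Smad7 was the SMAD that differed most, Smad3 differed in 1 comparison, and Smad2 and Smad4 did not pass in any.

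Smad7 was at 26.8 and 17.8 CPM in wt and at 18.6, 18.3 and 15.7 CPM in Rspo2KO. It was at 46.9, 31.4 and 31.7 CPM in Wnt9bKO and at 29.7, 34.6 and 33.3 CPM in DKO. All 6 Wnt9bKO and DKO libraries lay above the other 5, and the wt libraries stood apart from each other, with wt 2 among the Rspo2KO values. Of all genes tested, 10.1% were higher without overlap in those 6 libraries. Smad7 was higher than in Rspo2KO by 1.07 ± 0.17 in Wnt9bKO, or 2.10-fold (edgeR adjusted p = 0.000603), and by 0.90 ± 0.17 in DKO, or 1.86-fold (edgeR adjusted p = 0.00267).

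Against wt, Smad7 rose by 0.73 ± 0.20 in Wnt9bKO, or 1.66-fold (edgeR adjusted p = 0.0109), and by 0.56 ± 0.19 in DKO, or 1.47-fold (edgeR adjusted p = 0.0464). The change in Rspo2KO was -0.34 ± 0.20 (edgeR adjusted p = 0.520). The calls against wt depended on 1 control library: without wt 2 the change was 0.45 in Wnt9bKO (edgeR adjusted p = 0.178) and 0.28 in DKO (edgeR adjusted p = 0.432), and without wt 1 it was 1.03 (edgeR adjusted p = 0.00936) and 0.86 (edgeR adjusted p = 0.0269). Without the libraries labelled Wnt9bKO 2 and DKO 3, it was 0.83 in Wnt9bKO (edgeR adjusted p = 0.0106) and 0.53 in DKO (edgeR adjusted p = 0.0782). The DKO call against wt was also lost without any 1 Rspo2KO or DKO library (0.51 to 0.62, edgeR adjusted p = 0.0514 to 0.114). The differences from Rspo2KO passed in each of the 11 fits that left out 1 library, and without the libraries labelled Wnt9bKO 2 and DKO 3 they were 1.18 in Wnt9bKO (edgeR adjusted p = 0.00103) and 0.88 in DKO (edgeR adjusted p = 0.00708).

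Smad3, which binds DNA and activates target genes, was at 119 and 89.3 CPM in wt, at 110, 91.8 and 91.9 CPM in Rspo2KO, at 129, 138 and 120 CPM in Wnt9bKO and at 116, 118 and 116 CPM in DKO. The Wnt9bKO libraries were the highest, and the wt libraries spanned the range of Rspo2KO and DKO. Wnt9bKO lay above wt without overlap for 28.3% of all genes tested. Smad3 was higher in Wnt9bKO than in Rspo2KO by 0.40 ± 0.11 (edgeR adjusted p = 0.0191), which became 0.35 (edgeR adjusted p = 0.0704) without the libraries labelled Wnt9bKO 2 and DKO 3. Leaving out Rspo2KO 2, Rspo2KO 3 or Wnt9bKO 2 alone also ended the call (0.35 to 0.36, edgeR adjusted p = 0.0590 to 0.0867). Against wt the change was 0.31 ± 0.13 in Wnt9bKO (edgeR adjusted p = 0.0774). It was 0.52 without wt 1, where it passed (edgeR adjusted p = 0.0286), and 0.11 without wt 2 (edgeR adjusted p = 0.629).

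Smad2, the other receptor-activated SMAD, ranged from 70.4 to 89.5 CPM over the 11 libraries, and Smad4, the partner shared with the BMP branch, from 145 to 167 CPM. Smad2 was at 74.7 and 88.0 CPM in wt, and every mutant library but 3 lay between these values. The 95% interval of the change in Wnt9bKO against wt was -0.28 to 0.22 for Smad2 and -0.20 to 0.20 for Smad4. In DKO against wt it was -0.30 to 0.20 for Smad2 and -0.27 to 0.13 for Smad4.

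**Figure D3:**
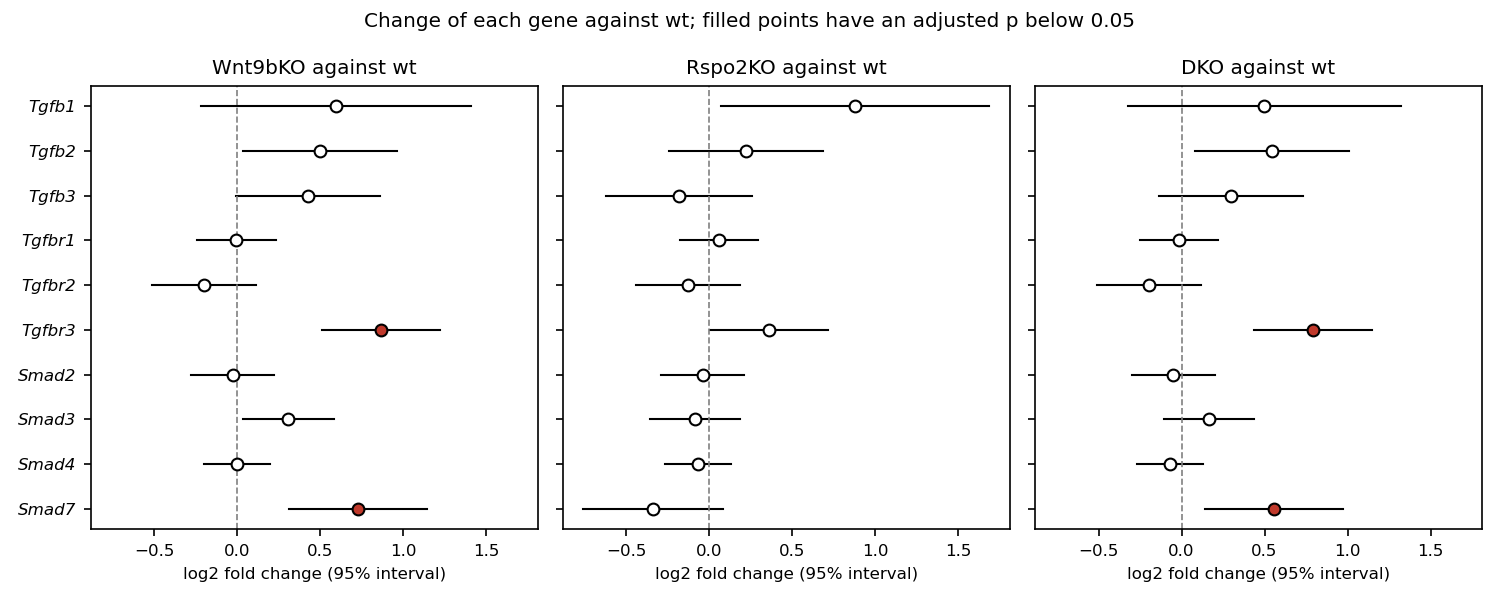
Log2 fold change against wt (horizontal axes) of each gene in Wnt9bKO, Rspo2KO and DKO; points are edgeR estimates, lines are 95% intervals, and filled points passed at an adjusted p below 0.05. Tgfbr3 (0.87 and 0.79) and Smad7 (0.73 and 0.56) are filled in Wnt9bKO and DKO, and no point is filled in Rspo2KO.

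Counted over the 10 genes, 2 passed in Wnt9bKO against wt, where 32.8% of all genes tested passed, and 2 in DKO against wt, where 27.5% passed. A share of 2 in 10 is near or below these backgrounds, so the count itself is not a result about the pathway. The median log2 change of the 10 genes was 0.37 in Wnt9bKO and 0.23 in DKO, beside 0.01 in each over all genes tested. In Rspo2KO against wt none passed edgeR's test, where 0.0346% of all genes passed, and 2 (Tgfb1 and Tgfbr3) had an unadjusted p below 0.05, as had 11.9% of all genes. DESeq2 called none of the other 9 there and gave Tgfb1 no adjusted p. The median of the 10 was -0.06, beside 0.00 over all genes.

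Between mutants, 4 of the 10 (Smad7, Tgfbr3, Smad3 and Tgfb3) passed in Wnt9bKO against Rspo2KO, all higher, where 26.0% of all genes passed, and 2 (Smad7 and Tgfbr3) in DKO against Rspo2KO, both higher, where 18.2% passed. None passed in DKO against Wnt9bKO by edgeR or DESeq2, where 0.121% of all genes passed, and none had an unadjusted p below 0.05, beside 5.63% of all genes. The 95% interval of that difference was -0.38 to 0.22 for Tgfbr3 and -0.53 to 0.18 for Smad7. The libraries labelled Wnt9bKO 2 and DKO 3, whose Rspo2 goes against their labels, lie in these groups, which also enter the interaction. Without them the difference was -0.05 for Tgfbr3 and -0.29 for Smad7, and neither passed. The interaction term, which asks whether the double mutant departs from the sum of the single mutants on the log2 scale, also passed for none by edgeR or DESeq2 (0.0635% of all genes passed, and none of the 10 had an unadjusted p below 0.05, beside 9.45% of all genes). Its estimate was -0.44 ± 0.22 for Tgfbr3 (edgeR adjusted p = 0.550) and 0.17 ± 0.26 for Smad7 (edgeR adjusted p = 0.866). The interaction term sets wt and DKO, the Xist-high groups, against both single mutants, the Xist-low groups. A departure from the sum therefore cannot be told apart from Xist state.

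The stretch before the start site is shown for 3 members to compare a window that holds both motifs searched (Tgfb2), one that holds 1 (the upstream start of Tgfbr1) and one that holds none (Smad3). The motifs were the TCF/LEF core, CTTTGA or CTTTGT, bound by the transcription factors of WNT signalling, and the CAGA box, CAGACA, bound by SMAD3 and SMAD4. Both strands were searched in the 250 bases before each start. Windows are given for 5 members: Tgfb1, Tgfb2, Tgfbr1, Tgfbr2 and Smad3. Tgfb3, Tgfbr3, Smad2, Smad4 and Smad7 are not covered, so the motifs say nothing about Tgfbr3 or Smad7. The sequences come from RefSeq (GRCm38.p6), run 5′ to 3′ on the gene's strand, and have the matches in capitals.
Tgfb2, chr1:186705990-186706239, minus strand: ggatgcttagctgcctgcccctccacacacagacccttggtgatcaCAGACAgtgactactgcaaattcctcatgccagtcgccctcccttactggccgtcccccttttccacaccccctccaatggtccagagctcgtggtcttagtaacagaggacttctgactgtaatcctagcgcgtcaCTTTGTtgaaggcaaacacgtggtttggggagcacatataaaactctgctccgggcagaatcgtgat
Tgfbr1, chr4:47352972-47353221, plus strand: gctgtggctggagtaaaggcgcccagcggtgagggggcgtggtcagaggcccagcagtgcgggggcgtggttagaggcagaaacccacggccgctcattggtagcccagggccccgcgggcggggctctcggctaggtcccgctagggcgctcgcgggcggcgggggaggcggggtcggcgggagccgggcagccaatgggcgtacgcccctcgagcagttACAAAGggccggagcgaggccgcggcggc
Smad3, chr9:63757995-63758244, minus strand: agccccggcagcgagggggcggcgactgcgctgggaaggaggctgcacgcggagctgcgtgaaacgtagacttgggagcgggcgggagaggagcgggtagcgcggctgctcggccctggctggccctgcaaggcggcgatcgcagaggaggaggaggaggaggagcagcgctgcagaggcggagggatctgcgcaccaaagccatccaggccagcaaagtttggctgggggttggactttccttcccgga

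In Tgfb2 the TCF/LEF match began 67 bases and the CAGA match 204 bases before the start, and at the upstream start of Tgfbr1 the TCF/LEF match began 29 bases before it, on the opposite strand. A second RefSeq start of Tgfbr1, inside the gene, held both motifs in its window (chr4:47385966-47386215, not printed), with the TCF/LEF match 22 bases and the CAGA match 203 bases before it. A TCF/LEF core lay in 27.6% and a CAGA box in 17.1% of 32851 promoters of the same length, so each is common. Smad3 passed in 1 comparison and held neither in this window. Tgfb1 and Tgfbr2, which passed in no comparison, also held neither in theirs. GC content was 53.6% before Tgfb2, 74.8% before the upstream start of Tgfbr1 and 69.2% before Smad3, beside a median of 52.4% over all promoters. A match is a description of letters and not a site.

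Around these 10 genes, the other genes of the pathway were followed in lists of fixed role. In Wnt9bKO and DKO genes of ligand activation, co-receptors, SMAD partners and response genes passed in both directions, those of the activin and nodal branch passed only as higher, and in Rspo2KO no listed gene passed edgeR's test. Of 77 listed genes tested, 34 passed in Wnt9bKO, where 32.8% of all genes tested passed, and 30 in DKO, where 27.5% passed. In Rspo2KO 16 had an unadjusted p below 0.05, beside 11.9% of all genes, and DESeq2 called 5, beside 1.44% of the genes it tested. Counts of each list below, in the fit of all 11 libraries, are read against the same 32.8% and 27.5%. The levels of blood, forebrain and small nuclear RNAs given above moved with the same groups, and their part was not tested.

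Ligand activation, the release of the latent ligand by latent TGF-beta binding proteins, fibrillins, integrins and thrombospondin, had 16 tested genes. In Wnt9bKO 8 rose and 1 fell, and in DKO 6 rose and 1 fell. The median log2 change was 0.50 and 0.44. Ltbp4, which binds latent ligand to the matrix, was at 2.11 to 2.23 CPM in wt, at 7.15 to 9.18 CPM in Wnt9bKO and at 4.98 to 6.86 CPM in DKO. It rose by 1.95 ± 0.25 in Wnt9bKO (edgeR adjusted p = 8.01e-05) and by 1.44 ± 0.25 in DKO. The integrin subunit Itgav rose by 0.77 ± 0.11 and 0.64 ± 0.11, and its partner subunit Itgb1 by 0.83 ± 0.13 and 0.90 ± 0.13. Together these integrins bind the latent complex. Thbs1, which encodes a thrombospondin that releases latent ligand, rose by 0.75 ± 0.18 in Wnt9bKO, and the integrin subunit Itgb8 by 0.90 ± 0.17 in DKO.

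Among 6 co-receptors, Eng, an endothelial co-receptor also called endoglin, rose by 0.96 ± 0.22 in Wnt9bKO and by 1.01 ± 0.22 in DKO. Bambi, a pseudoreceptor that blocks signalling, fell by 0.53 and 0.66 on the log2 scale (edgeR adjusted p = 0.0412 and 0.0169), and its call was lost in 6 and 4 of the alternative fits. Summed endothelial markers (10 genes, none at 0) were 240 to 283 CPM in all groups, while single markers moved both ways (3 higher and 4 lower in Wnt9bKO, 3 higher and 3 lower in DKO). The other 4 co-receptors did not pass in either comparison. The list's median was -0.09 in Wnt9bKO and -0.11 in DKO.

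The activin and nodal branch had 9 tested genes of 17 listed, with 3 higher in Wnt9bKO and 4 higher in DKO and none lower. Nodal, Inhba, Gdf3, Tdgf1, Lefty1, Lefty2 and Fstl3 were too low to be tested, at 0.905 CPM or less in every library. Gdf1 was not found among the genes counted. The type I receptor gene Acvr1b rose by 0.82 ± 0.13 and 0.64 ± 0.13, and the type II receptor gene Acvr2b by 0.63 ± 0.13 and 0.38 ± 0.13. The ligand gene Gdf11 rose by 0.42 ± 0.11 and 0.36 ± 0.11, and Fst, which encodes the activin trap follistatin, by 0.71 ± 0.23 in DKO. The BMP-branch SMADs, with 4 tested genes, had none that passed by edgeR or DESeq2, and none had an unadjusted p below 0.05 in Wnt9bKO or DKO (0 of 4 in each). Their medians were 0.14 and 0.06.

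SMAD partners and regulators had 19 tested genes. In Wnt9bKO 5 rose and 1 fell, and in DKO 5 rose and 2 fell. Dab2, an adaptor that links receptors to SMADs and to endocytosis, was at 13.1 to 15.5 CPM in wt, at 40.8 to 53.5 CPM in Wnt9bKO and at 53.8 to 62.4 CPM in DKO. It rose by 1.77 ± 0.21 and 2.00 ± 0.21. Tgif1, a corepressor of SMAD2, rose by 0.79 ± 0.14 and 0.72 ± 0.14, and Smurf1, a ubiquitin ligase that removes receptors and SMADs, by 0.71 ± 0.13 and 0.60 ± 0.13. Crebbp, a coactivator, rose by 0.81 ± 0.20 in Wnt9bKO, and Trim33, a regulator of SMAD4, by 0.43 ± 0.11 in DKO.

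Response genes, 23 tested, passed in both directions: 8 rose and 6 fell in Wnt9bKO, and 6 rose and 4 fell in DKO. Cdkn1a, a cell-cycle inhibitor, was at 9.79 to 11.1 CPM in wt, at 2.58 to 3.03 CPM in Wnt9bKO and at 1.99 to 4.01 CPM in DKO. It fell by 1.90 and 1.92 on the log2 scale. Bhlhe40, a transcription repressor, was near the counting limit in wt (0.268 to 0.423 CPM) and at 2.27 to 2.98 CPM in Wnt9bKO and 1.41 to 2.62 CPM in DKO, and its increase was 2.82 ± 0.43 and 2.37 ± 0.44. Angptl4, a lipase inhibitor, fell by 0.80 and 0.59, and Sphk1, a sphingosine kinase, by 0.97 in Wnt9bKO. The matricellular gene Ccn1 rose by 0.78 ± 0.19 in DKO. The list's median was 0.43 and 0.42, beside 0.01 in each over all genes tested.

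**Figure D4:**
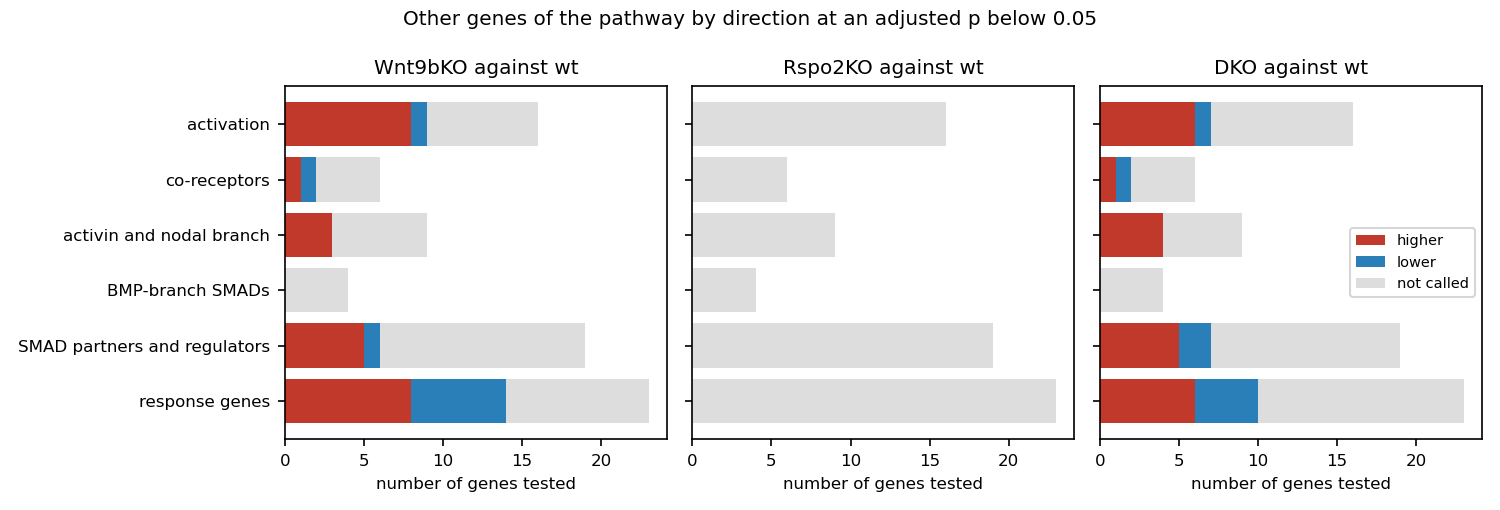
Number of tested genes in each list (horizontal axes) that were higher, lower or not called at an adjusted p below 0.05 against wt; bars are the 6 lists of other pathway genes, for Wnt9bKO, Rspo2KO and DKO. Response genes split into 8 higher and 6 lower in Wnt9bKO, ligand activation into 8 higher and 1 lower, and no bar is coloured in Rspo2KO.

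Without the libraries labelled Wnt9bKO 2 and DKO 3, ligand activation had 7 higher and 1 lower in each of Wnt9bKO and DKO, and response genes had 11 higher and 6 lower in Wnt9bKO and 8 higher and 3 lower in DKO. The activin and nodal branch then had 3 higher and 1 lower in each. SMAD partners had 5 higher and 1 lower in Wnt9bKO and 4 higher and 1 lower in DKO, and co-receptors kept 1 higher and 1 lower in each. Of all genes tested in that fit, 29.7% passed in Wnt9bKO and 25.6% in DKO against wt.

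The counts against wt depended on both control libraries, and so did the share of all genes that passed, which fell to 17.6% without wt 1 and 18.8% without wt 2 in Wnt9bKO and to 12.7% and 14.4% in DKO. Response genes had 6 that passed in Wnt9bKO and 3 in DKO without wt 1, and 5 and 3 without wt 2. Ligand activation had 6 and 5 without wt 1, and 4 and 6 without wt 2. SMAD partners had 3 and 2 without wt 1, and 5 and 4 without wt 2. The activin and nodal branch had 2 and 1 without wt 1, and 3 and 1 without wt 2, while co-receptors lost both calls without wt 1 and had 1 in each without wt 2.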

How the data were processed

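RNA of facial process explants was sequenced by the study as single-end reads. Per the labels and the study's methods, the authors trimmed adapters and poly-A/T stretches with cutadapt, discarded reads under 30 bases, mapped the rest to GRCm38 with STAR, and deposited raw HTSeq counts per gene and library; strand use in counting is not given in the sources used here. The depth of 11136166 to 18017344 counts per library sets the precision of low genes.

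Counts of 17317 genes that passed edgeR's expression filter, among 38561, were scaled by TMM (factors 0.915 to 1.10) and tested with edgeR's quasi-likelihood test (edgeR 4.0.16, R 4.3.3) in 1 model of 4 groups over 11 libraries, with Benjamini-Hochberg adjustment over all genes and a threshold of 0.05. DESeq2 1.42.0 was an alternative. The fit was tested on simulated data. Exon lengths and coordinates are from GENCODE annotation of GRCm38. The 10 genes, the other lists and the tests were chosen with earlier results of these data known. All 10 genes are named in every comparison. From each other list the text names up to 4 genes with the smallest p among those that passed against wt. Alternatives covered normalization, the filter on low counts, the libraries in the model, a block, a GC and length correction, the call rule and leaving out libraries.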

Additional observations from a re-analysis of the deposited data

How the results depend on the processing

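Over the 60 log2 changes of the 10 genes and their alternatives, 1136 values kept their direction and side of the threshold, 26 lost a call, 22 gained one and 75 changed sign, all 75 of changes that had not passed. The increases of Tgfbr3 against wt and of Smad7 against Rspo2KO passed under every alternative run. Of 35 changes of other pathway genes named here, 19 passed under every alternative and none changed sign; these alternatives and the counts per list were chosen after seeing the data. With DESeq2 or no low-count filter a few listed genes passed in Rspo2KO, as with ligand activation, where 2 and 3 did. Of all genes tested, 1.44% and 2.04% passed there. Only 2 wt libraries, and 11 to 39 counts of Tgfb1, limit what could be detected. The cause of the changes below was not tested.

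For the number of the 10 genes that passed, asking also for a 1.5-fold change left 1 in DKO against wt, 1 in DKO against Rspo2KO and 2 in Wnt9bKO against Rspo2KO. Of all genes tested, 16.7%, 9.26% and 13.7% met that rule. The same fold with an unadjusted p gave 1, 1 and 2, and 1 in Rspo2KO against wt, beside 20.4%, 12.2%, 16.9% and 4.68% of all genes. Leaving out 1 library gave 1 to 3 in Wnt9bKO against wt, in DKO against wt and in DKO against Rspo2KO, and 2 to 4 in Wnt9bKO against Rspo2KO; where a group kept 1 library, it was assumed to vary like the others. With the replicate block 3 passed in each of Wnt9bKO and DKO against wt, where 35.0% and 29.6% of all genes passed. The added genes were Smad3 in Wnt9bKO (0.35, edgeR adjusted p = 0.0379) and Tgfb2 in DKO (0.57, edgeR adjusted p = 0.0413). The block was not used because the labels tie no number to a shared litter or day and the deviations of same-numbered libraries correlated above 0.1 in only 3 of 15 pairs (-0.11 to 0.24, median 0.066, against a median of -0.024 for other numbers). Of the 11 libraries, 8 correlated best with their own number, a hint from the data and not from the design.

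Sign changes of values near 0 were as follows. With upper-quartile factors, the change against wt was 0.020 for Tgfbr1 and 0.022 for Smad4 in Wnt9bKO and 0.0083 for Tgfbr1 in DKO, and that of Smad2 in DKO against Rspo2KO was 0.0018. In Wnt9bKO against wt, no filter gave 0.0017 for Tgfbr1 and 0.0032 for Smad4, and a minimum of 10 counts gave 0.012 and 0.014. Only the groups compared gave 0.010 for Smad2 in DKO against Rspo2KO. The replicate block gave 0.011 for Smad4 in Wnt9bKO against wt and -0.0021 for Tgfbr2 in DKO against Wnt9bKO. The GC and length offset gave for Smad4 against wt 0.082 in Wnt9bKO and 0.0075 in DKO, and for Smad2 in Wnt9bKO against Rspo2KO -0.040; with the block these were 0.094, 0.020 and -0.043. Without the libraries labelled Wnt9bKO 2 and DKO 3, Tgfbr1 was at 0.0088 in DKO against wt, Smad2 at -0.067 in Wnt9bKO against Rspo2KO and Tgfbr2 at 0.083 in DKO against Rspo2KO. In DKO against Wnt9bKO it gave -0.081 for Tgfb2, 0.052 for Tgfbr1 and 0.021 for Smad2.

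Leaving out 1 library at a time changed some signs. In Wnt9bKO against wt the range was -0.065 to 0.056 for Tgfbr1, -0.14 to 0.095 for Smad2 and -0.025 to 0.050 for Smad4. In Rspo2KO against wt it was -0.0091 to 0.11 for Tgfbr1, -0.14 to 0.083 for Smad2 and -0.29 to 0.14 for Smad3. In DKO against wt it was -0.079 to 0.040 for Tgfbr1, -0.17 to 0.071 for Smad2 and -0.032 to 0.38 for Smad3. In DKO against Wnt9bKO it was -0.31 to 0.17 for Tgfb1, -0.14 to 0.39 for Tgfb2, -0.25 to 0.044 for Tgfb3, -0.070 to 0.024 for Tgfbr1, -0.10 to 0.15 for Tgfbr2, -0.18 to 0.051 for Tgfbr3, -0.11 to 0.064 for Smad2 and -0.27 to 0.044 for Smad7. In DKO against Rspo2KO it was -0.17 to 0.082 for Tgfbr2, -0.047 to 0.030 for Smad2 and -0.017 to 0.024 for Smad4. In Wnt9bKO against Rspo2KO it was -0.063 to 0.48 for Tgfb2, -0.12 to 0.0029 for Tgfbr1 and -0.057 to 0.10 for Smad2.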
